A study of Mus musculus with 4 samples.

Results

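The genes described here are 10 interferon-gamma-induced GTPases of the mouse: the guanylate-binding proteins Gbp2, Gbp3, Gbp4, Gbp5, Gbp6, Gbp7 and Gbp9, and the immunity-related GTPases Igtp, Irgm1 and Ifi47. They were chosen by name, and all 10 were among the 32287 features counted. Peripheral blood leukocytes came from C57BL/6J mice 10 weeks old that had been inoculated with acute lymphoblastic leukaemia and treated with dasatinib, a tyrosine kinase inhibitor. Every mouse had received dasatinib for 1 week and was in remission when blood was drawn, and treatment then went on for 4 weeks. The Cured group (6 mice) was still in remission at day 100, and the Relapsed group (6 mice) was not. Each group gave 2 droplet single-cell libraries of 5′ RNA ends, each a pool of 3 mice, so a library is the replicate and the mouse of a cell is unknown. Both groups carried leukaemia and drug, the blood of untreated or leukaemia-free mice was not analysed here, and outcome was assigned only afterwards. The label of interferon-gamma induction comes from background knowledge of the genes, since no interferon was given in this design.

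Guanylate-binding proteins and immunity-related GTPases are large GTP-hydrolysing proteins that cells make after interferon-gamma binds its receptor and activates the JAK kinases. In mice they gather on vacuoles that hold intracellular parasites or bacteria and help to break them open or mark them for autophagy and inflammasome sensing. Igtp and Irgm1 are regulators that hold effector immunity-related GTPases inactive on the cell's own membranes, and Ifi47 is one of the effectors. Type I interferons also induce many of these genes, through the interferon-stimulated response element (ISRE).

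The members lie in 3 groups on the genome (GENCODE M21 on GRCm38). Gbp5, Gbp7, Gbp3 and Gbp2 follow each other on the plus strand of chr3:142493978-142638008, a span of 0.14 Mb. Gbp9, Gbp4 and Gbp6 share the minus strand of chr5:105077630-105293698, a span of 0.22 Mb. Irgm1 (chr11:48861968-48871683, minus strand), Ifi47 (chr11:49076587-49096974, plus strand) and Igtp (chr11:58199556-58207591, plus strand) lie within 9.35 Mb of each other. All are protein-coding genes.

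The promoter sequences are shown because the members are known as interferon targets and the window before the start is where such elements are usually found. RefSeq windows (GRCm38.p6, 250 bases before to 50 after the start) were held for 7 of the 10 members, in 8 windows, with none for Gbp4, Gbp6 and Gbp9. The ISRE core was searched on both strands as TTTC, any 2 bases and TTTC again, which reads as GAAA, any 2 bases and GAAA on the other strand. The ISRE core was in 6 of the 8 member windows, of 6 members, and in 3.44% of all 32851 windows. The stretch of each window with its ISRE core in capitals is printed 5′ to 3′ on the strand of the gene.
Gbp5: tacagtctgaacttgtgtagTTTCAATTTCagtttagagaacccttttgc
Gbp7: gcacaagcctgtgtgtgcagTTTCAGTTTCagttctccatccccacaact
Gbp3: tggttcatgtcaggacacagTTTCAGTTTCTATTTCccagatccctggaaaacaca
Gbp2: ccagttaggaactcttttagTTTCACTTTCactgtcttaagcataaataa
Irgm1: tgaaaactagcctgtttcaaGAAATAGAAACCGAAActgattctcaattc
Igtp: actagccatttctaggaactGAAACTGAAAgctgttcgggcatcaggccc

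Those stretches lie at chr3:142496749-142496798 (Gbp5), chr3:142530263-142530312 (Gbp7), chr3:142559979-142560034 (Gbp3), chr3:142620584-142620633 (Gbp2), chr11:48871421-48871470 on the minus strand (Irgm1) and chr11:58199502-58199551 (Igtp), all on the plus strand but for Irgm1. The core began 165 bases before the RefSeq start in Gbp5, 59 in Gbp2 and 53 in Gbp7. It began 45 bases before that start in Gbp3, 34 in Igtp and 30 in Irgm1. The GENCODE spans given above start elsewhere. By these spans the stretches of Gbp5 and Irgm1 lie inside the gene, and those of Gbp2 and Gbp3 run across its start. Gbp3 and Irgm1 each held 2 overlapping cores. In Irgm1 and Igtp the core ran on the strand opposite to the gene. The window of Ifi47 and the other window of Gbp3 held no ISRE core, which says only that these letters were not in those windows.

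The 4 libraries held 16157 barcodes and 37141352 UMIs (unique molecular identifiers, 1 per captured RNA molecule), from 7184045 to 10840397 UMIs per library. A marker gate put 14334 cells in 7 classes: 11293 B cells, 145 CD4 T cells, 833 CD8 T cells, 720 NK cells, 104 classical monocytes, 284 non-classical monocytes and 955 neutrophils. No member was among the gate's markers. Relapsed replicate 1 stood apart: red cell marker UMIs summed to 3937 CPM (a UMI count scaled to the total of its class in its library) in its B cells and 4074 CPM in its NK cells, against 219 to 434 CPM and 0 to 3 CPM in the other libraries. Cured cells were also deeper: the median UMIs per cell of the Cured libraries exceeded those of the Relapsed libraries among B cells (2235 and 2342 in Cured, 1848 and 2025 in Relapsed), CD8 T cells (3889 and 3844 in Cured, 3294 and 3406.5 in Relapsed) and NK cells (2032 and 1855.5 in Cured, 1544 and 1772.5 in Relapsed). The part of either difference in the results was not tested. Between libraries, 131 barcode sequences occurred in 2 libraries and 0 in 3 or more. The 358 red cell barcodes, dominated by haemoglobin, held 0 UMIs of any member, which in the largest set (281 barcodes of Relapsed replicate 1) allows a share of up to 1.3% of barcodes with a member UMI.

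Ifi47 was the most captured member, with 3497 UMIs in the 7 classes. It was followed by Irgm1 (1093), Gbp3 (1028), Gbp2 (875), Gbp9 (753), Gbp4 (720), Igtp (653), Gbp7 (620), Gbp5 (390) and Gbp6 (153). A UMI stands for 1 captured molecule, and CPM values were not scaled to transcript length. Whether the transcripts of different members were captured equally well was not tested. Comparisons between members are therefore of captured UMIs, and shared sequence limits them further. Of the 90-base stretches in the transcripts of Gbp6, 65.6% also occur in another gene, chiefly in the predicted gene Gm43302 (60.07%) and in Gbp10 (37.9%), so counts of Gbp6 are uncertain. That share was 10.48% for Gbp7 (shared with Gm43802 and Gbp3), 6.13% for Igtp (shared with Irgm2), and at most 2.21% for the other members. These shares are over whole transcripts, whereas the libraries held 5′ RNA ends. The share within the captured ends was not computed for any member. Gbp4 and Gbp9 overlap each other and Gbp8 in exons on the same strand, Igtp overlaps Irgm2 and Ifi47 overlaps Olfr56. How reads over such overlaps were counted is not given in the sources used here.

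Ifi47, an effector immunity-related GTPase, was high in T cells, NK cells and classical monocytes, lower in B cells and non-classical monocytes, and lowest in neutrophils. Its level averaged 256.5 ± 119 CPM in CD4 T cells, 230.0 ± 69.0 CPM in NK cells, 227.0 ± 61.9 CPM in CD8 T cells and 199 ± 66.8 CPM in classical monocytes (SD, n = 4 libraries, both groups together). It averaged 80.6 ± 23.0 CPM in B cells, 51.8 ± 33.3 CPM in non-classical monocytes and 15.7 ± 13.1 CPM in neutrophils. Neighbouring classes in this order overlapped between libraries, except classical monocytes and B cells.

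The levels of the other members were spread over the classes in different ways, as the plot of members by class shows. Gbp4, a guanylate-binding protein of the chromosome 5 group, averaged 44.2 ± 4.59 CPM in NK cells, 44.0 ± 8.90 CPM in CD4 T cells and 36.6 ± 9.13 CPM in CD8 T cells, with overlap between libraries. It averaged 20.8 ± 1.53 CPM in B cells and 4.14 ± 3.1 CPM in neutrophils. Monocytes held almost none of it: 1 UMI among 723142 of non-classical monocytes (1.38 CPM, exact Poisson interval 0.035 to 7.71 CPM) and 0 among 461514 of classical monocytes, where 3 UMIs would make 6.5 CPM. These intervals and floors cover counting error only.

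**Figure D1:**
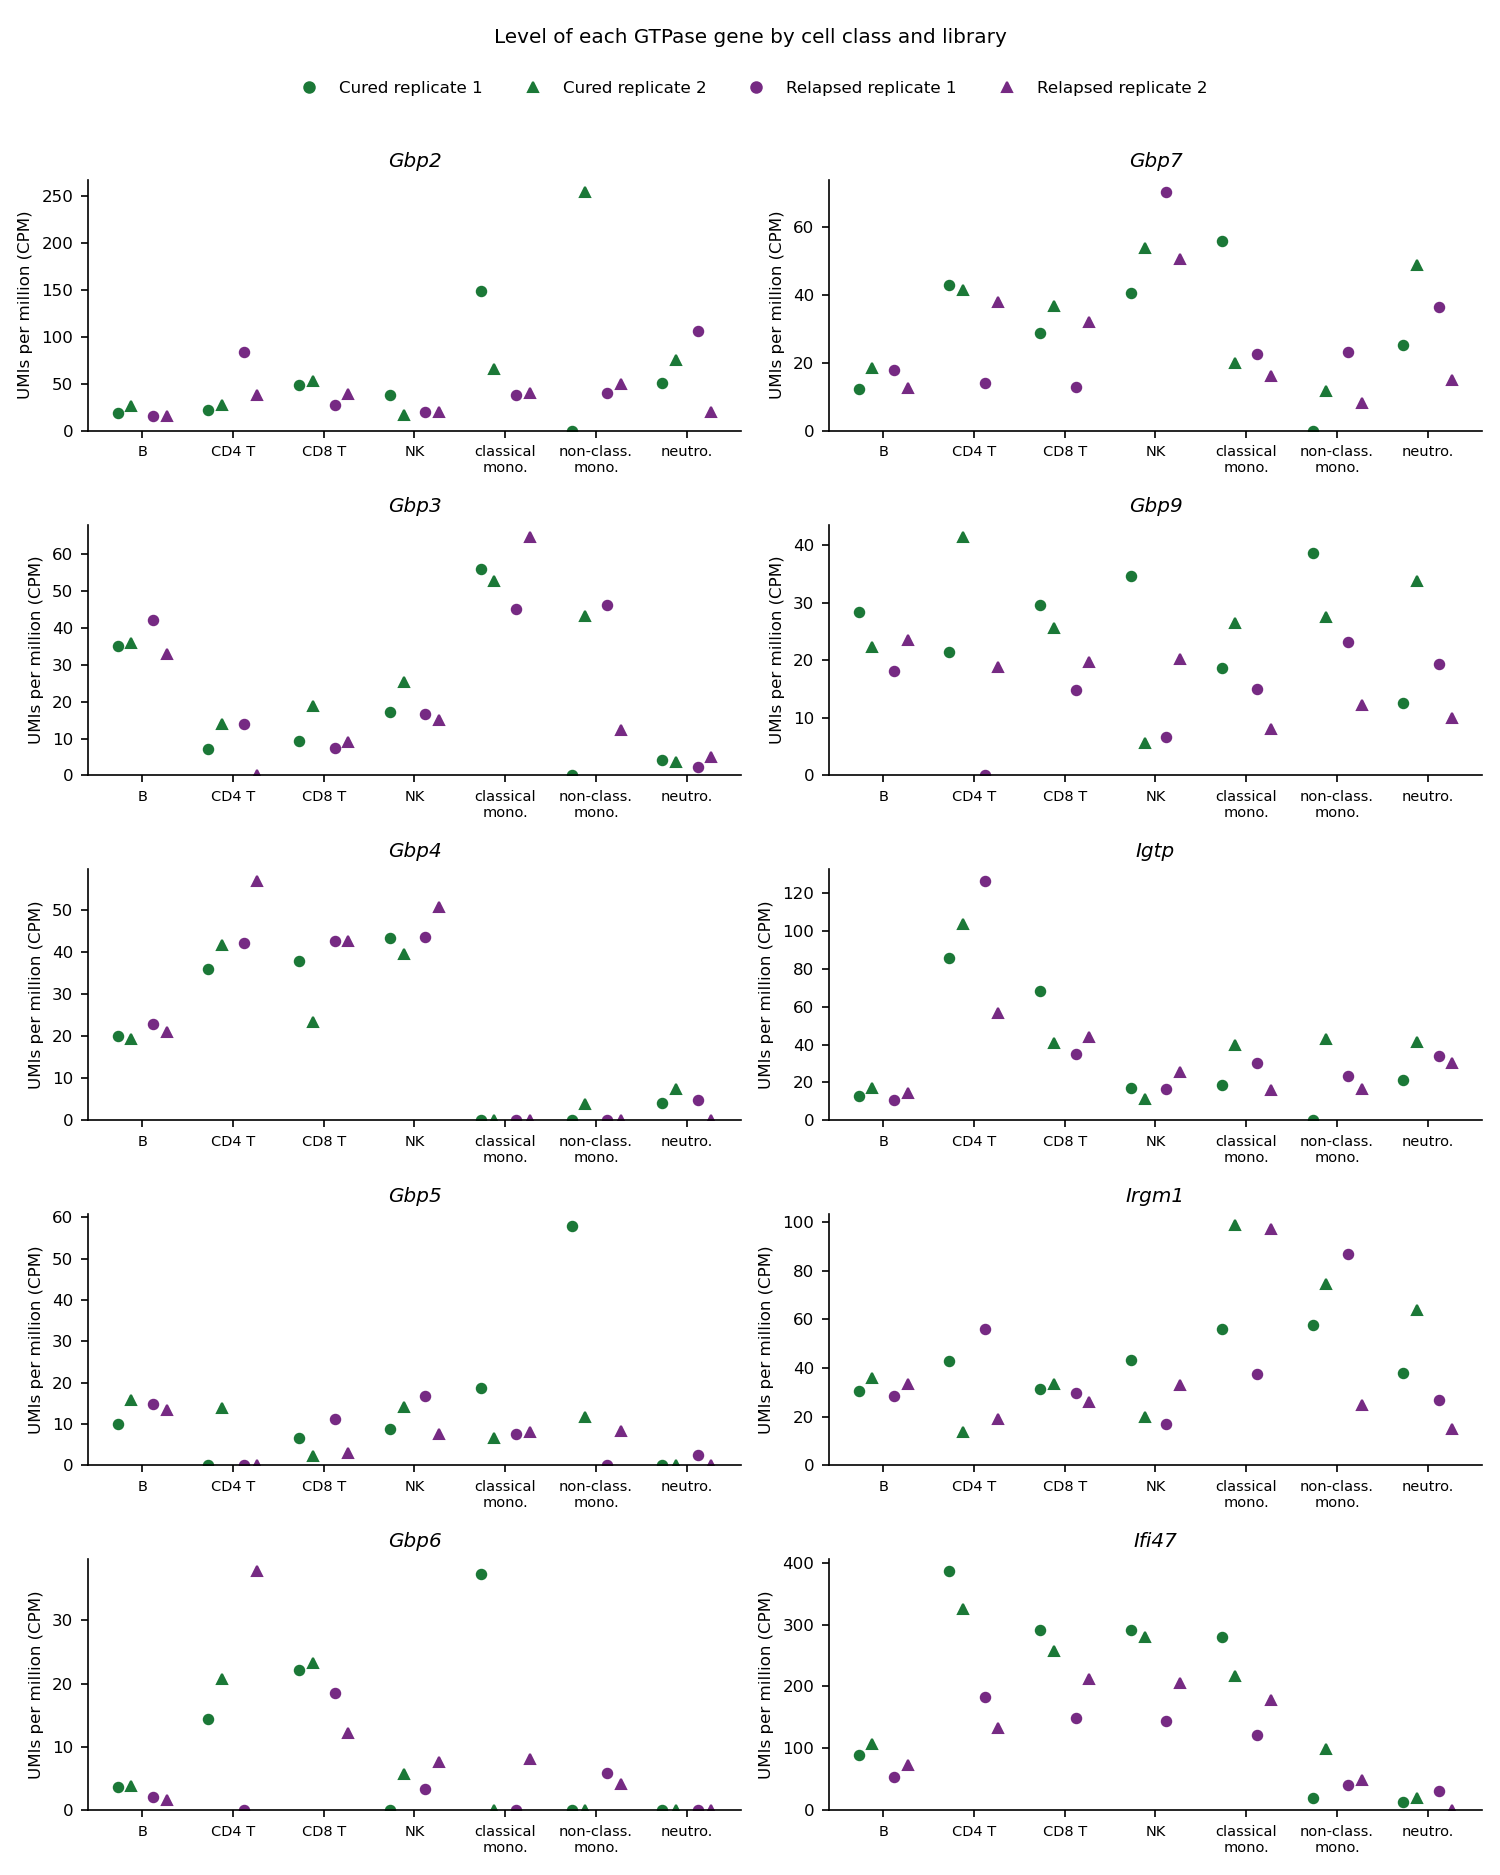
Level of each of the 10 GTPase genes in 7 blood cell classes, in CPM on a linear axis of its own for each gene, with 1 point per library (Cured green, Relapsed purple, circles for replicate 1 and triangles for replicate 2). Ifi47 lies highest in CD4 T, CD8 T, NK cells and classical monocytes, Gbp3 and Irgm1 are led by classical monocytes, and Gbp4 is near 0 in both monocyte classes.

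Gbp2, Gbp3, Gbp5 and Gbp7 are neighbours on chromosome 3. Gbp2 is recruited to parasite vacuoles in mouse cells, and Gbp5 is known for its part in inflammasome activation. Gbp2 averaged 86.2 ± 115 CPM in non-classical monocytes, 73.3 ± 52.1 CPM in classical monocytes, 63.1 ± 36.8 CPM in neutrophils, 42.8 ± 28.4 CPM in CD4 T cells, 42.4 ± 11.3 CPM in CD8 T cells, 23.7 ± 9.33 CPM in NK cells and 18.8 ± 4.95 CPM in B cells (SD, n = 4). The monocyte and neutrophil levels of Gbp2 varied widely between libraries, and every neighbour in this order overlapped the next. Gbp3 averaged 54.7 ± 8.08 CPM in classical monocytes and 36.5 ± 3.92 CPM in B cells, then 25.5 ± 22.9 CPM in non-classical monocytes, 18.7 ± 4.60 CPM in NK cells, 11.2 ± 5.20 CPM in CD8 T cells, 8.75 ± 6.65 CPM in CD4 T cells and 3.85 ± 1.09 CPM in neutrophils. Classical monocytes lay above B cells in every library, and each lower neighbour overlapped the next. Gbp7 was highest in NK cells (53.8 ± 12.4 CPM) and lowest in non-classical monocytes (10.8 ± 9.61 CPM), with 15.2 to 34.1 CPM in the other classes. Gbp5 was low everywhere, between 0.607 ± 1.21 CPM in neutrophils, where it had 1 UMI, and 19.5 ± 26.1 CPM in non-classical monocytes.

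Gbp6 and Gbp9 lie with Gbp4 on chromosome 5. Gbp6 averaged 19.0 ± 5.02 CPM in CD8 T cells and 18.2 ± 15.7 CPM in CD4 T cells, and 2.76 ± 1.08 CPM in B cells (SD, n = 4). Neutrophils held 0 Gbp6 UMIs of 1115225, where 3 UMIs would make 2.69 CPM. Gbp9 was the most even member, between 16.8 ± 13.6 CPM in NK cells and 25.4 ± 10.9 CPM in non-classical monocytes.

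The regulators Igtp and Irgm1 differed from each other in where they were found. Igtp averaged 93.1 ± 29.3 CPM in CD4 T cells, 47.2 ± 14.6 CPM in CD8 T cells, 31.6 ± 8.37 CPM in neutrophils, 26.1 ± 10.8 CPM in classical monocytes, 20.7 ± 17.9 CPM in non-classical monocytes, 17.7 ± 5.76 CPM in NK cells and 13.8 ± 2.79 CPM in B cells. Every neighbour in that order overlapped the next between libraries, CD4 and CD8 T cells included. Irgm1, known in mice for its part in autophagy and in defence against mycobacteria, averaged 72.4 ± 30.5 CPM in classical monocytes and 61.0 ± 27.0 CPM in non-classical monocytes, and 28.2 to 35.9 CPM in the other 5 classes, with overlap between libraries.

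The make-up of the 10 members' UMIs therefore differed by class. Ifi47 supplied 51.4% of them in NK cells, 49.8% in CD4 T cells, 49.0% in CD8 T cells, 40.4% in classical monocytes and 32.1% in B cells, over the 4 libraries together. In non-classical monocytes Ifi47 supplied 18.1% and Gbp2 33.7%, though without Cured replicate 2, which held 65 of the 84 Gbp2 UMIs, Ifi47 supplied 19.2% and Gbp2 18.3%. In neutrophils Ifi47 supplied 8.5% and Gbp2 32.5%. Igtp supplied 16% in CD4 T cells, Gbp3 13.7% in B cells and Gbp7 15.0% in neutrophils and 11.7% in NK cells.

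**Figure D2:**
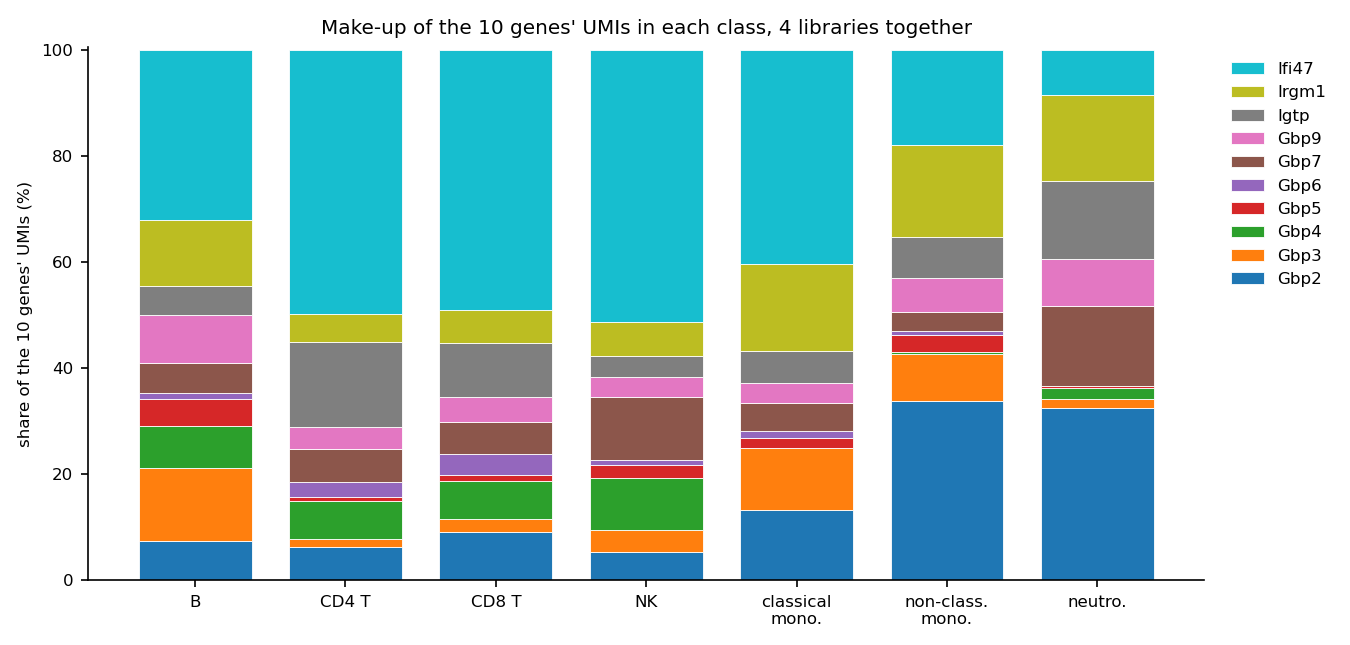
Share of the 10 GTPase genes' UMIs, in percent, that each gene supplied in each blood cell class, with the 4 libraries together. Ifi47 supplies 49.0% to 51.4% in CD4 T, CD8 T and NK cells and 8.5% in neutrophils, where Gbp2 supplies 32.5%.

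Each class was set against the mean of the other classes in a single model of the 24 sums of 6 classes, with the library as a block (edgeR's quasi-likelihood test, Benjamini-Hochberg adjustment over 6018 genes, threshold 0.05). Gbp5 and Gbp6 fell under the count filter of that model, and their values come from the same fit without the filter. A class sum changes with the other RNA of the cells, and most classes differ in a large share of all genes, so each count of members stands beside that share.

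T cells were higher in Gbp4, Igtp and Ifi47. In CD8 T cells Ifi47 (log2 fold change 1.53, SE 0.12, adjusted p 1.66e-22), Gbp4 (1.78, SE 0.28, adjusted p 7.79e-09) and Igtp (0.96, SE 0.19, adjusted p 2.78e-06) were higher than in the other classes, 3 of 8 members tested, where 24.3% of all genes were higher and 22.4% lower. None of the 8 members was lower in CD8 T cells. In CD4 T cells the same 3 genes were higher, where 11.6% of all genes were higher and 9.31% lower: Igtp (1.81, SE 0.32, adjusted p 7.06e-07), Gbp4 (1.79, SE 0.50, adjusted p 0.00324) and Ifi47 (1.58, SE 0.20, adjusted p 5.93e-11). Without the filter Gbp6 was higher in CD8 T cells (3.46, SE 0.45, adjusted p 3.8e-13) and in CD4 T cells (2.72, SE 0.89, adjusted p 0.0331).

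Between CD8 and CD4 T cells 0 of 8 members passed the test, where 2.16% of all genes were higher in CD8 T cells and 0.698% lower. At an unadjusted p under 0.05 the count was 1, Igtp (log2 fold change -0.71, SE 0.30, adjusted p 0.278), and DESeq2 called 166 genes against 172 by edgeR over all genes. The CD4 T cells were few, 21 to 50 per library.

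NK cells shared the higher Ifi47 and Gbp4 but not the higher Igtp. In NK cells Ifi47 (log2 fold change 0.93, SE 0.14, adjusted p 1.59e-08), Gbp4 (1.52, SE 0.32, adjusted p 3.23e-05) and Gbp7 (0.81, SE 0.24, adjusted p 0.00339) were higher than in the other classes, where 25% of all genes were higher. Igtp (-1.39, SE 0.30, adjusted p 3.17e-05), Irgm1 (-0.76, SE 0.26, adjusted p 0.0135) and Gbp9 (-0.81, SE 0.33, adjusted p 0.0397) were lower, where 15.2% of all genes were lower. The call of Gbp9 was lost without Relapsed replicate 1 (adjusted p 0.108), and that of Irgm1 without it (adjusted p 0.102) and without Cured replicate 2 (adjusted p 0.145), while scaling to UMIs per cell ended both. Set directly against CD8 T cells, NK cells were lower in Igtp (-1.96, SE 0.30, adjusted p 5.37e-09), Gbp9 (-0.94, SE 0.35, adjusted p 0.0267) and Ifi47 (-0.50, SE 0.13, adjusted p 0.000993), 3 of 8 members against 14.6% of all genes lower. DESeq2 did not call that difference of Ifi47 (adjusted p 0.063). No member was higher, against 20.3% of all genes, and Gbp6 was lower without the filter (-2.70, SE 0.53, adjusted p 7.7e-06).

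**Figure D3:**
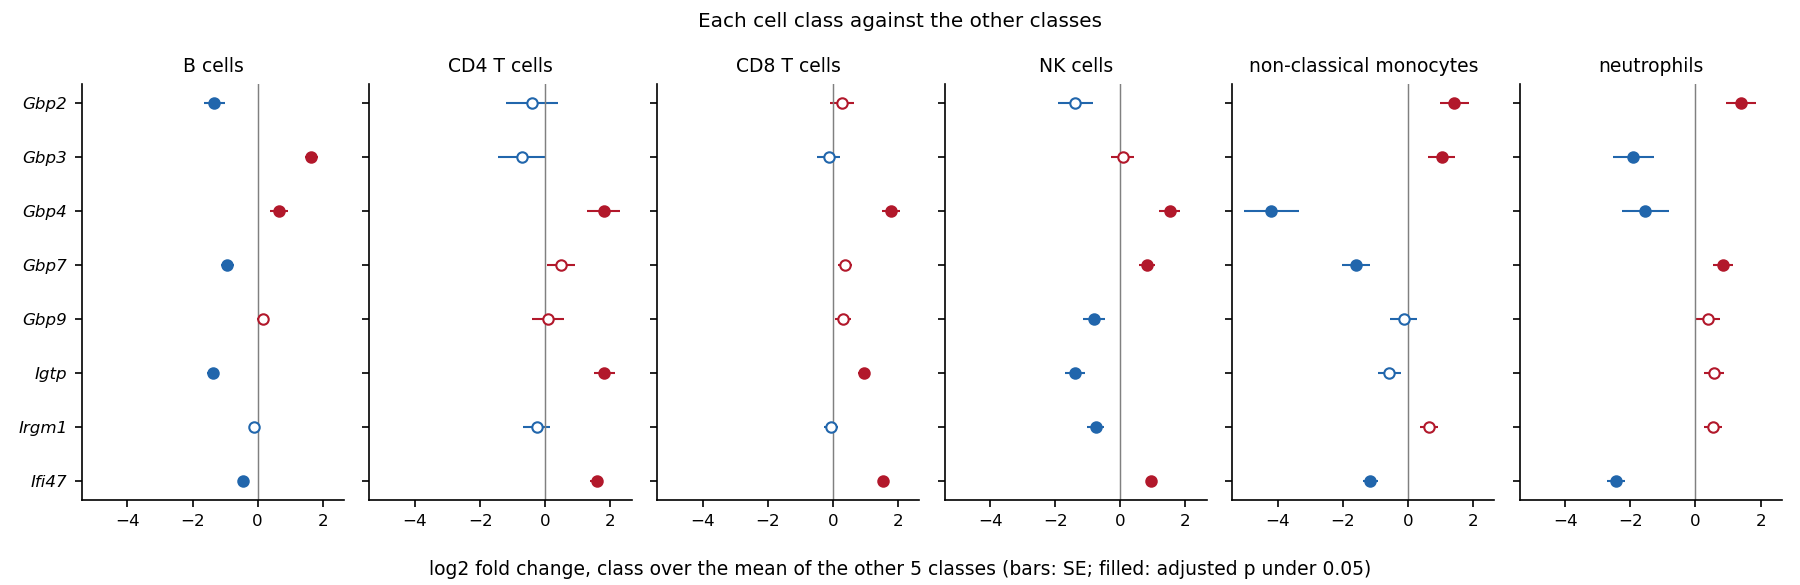
Log2 fold change of each GTPase gene in each cell class against the mean of the other classes (edgeR, library as a block), with bars of 1 standard error, filled points where the adjusted p was under 0.05, and red points above 0 and blue points below. Ifi47 lies at 1.58 in CD4 T cells, 1.53 in CD8 T cells and 0.93 in NK cells, and at -2.44 in neutrophils.

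B cells, the largest class, had their largest positive fold change among the members in Gbp3. Gbp3 (log2 fold change 1.65, SE 0.20, adjusted p 2.25e-14) and Gbp4 (0.65, SE 0.28, adjusted p 0.0396) were higher in B cells than in the other classes, 2 of 8 members against 34.8% of all genes. The other classes enter that mean on a log scale, with monocytes and neutrophils that held almost no Gbp4, and the B cell level of Gbp4 (20.8 CPM) lay below that of NK, CD4 T and CD8 T cells (36.6 to 44.2 CPM). Igtp (-1.38, SE 0.17, adjusted p 4.41e-13), Gbp7 (-0.93, SE 0.20, adjusted p 1.31e-05), Ifi47 (-0.44, SE 0.12, adjusted p 0.00105) and Gbp2 (-1.33, SE 0.33, adjusted p 0.00264) were lower, 4 of 8 against 21.7% of all genes. Gbp5 was higher without the filter (1.61, SE 0.31, adjusted p 1.62e-06). The call of Gbp4 was lost with DESeq2 (adjusted p 0.0899), without Cured replicate 1 (adjusted p 0.0604), without Relapsed replicate 2 (adjusted p 0.123) and scaled to UMIs per cell (adjusted p 0.0714), and that of Ifi47 with DESeq2 (adjusted p 0.0516), thinned (adjusted p 0.0589) and without Relapsed replicate 1 (log2 fold change -0.11, adjusted p 0.574).

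Non-classical monocytes were higher in Gbp2 (log2 fold change 1.43, SE 0.46, adjusted p 0.0203) and Gbp3 (1.04, SE 0.41, adjusted p 0.0337), 2 of 8 members against 26.5% of all genes. They were lower in Gbp4, of which they held 1 UMI, in Gbp7 (-1.59, SE 0.44, adjusted p 0.00155) and in Ifi47 (-1.15, SE 0.24, adjusted p 3.13e-05), 3 of 8 against 11.5% of all genes. The Gbp2 result rested on Cured replicate 2, without which the log2 fold change was -0.0595 (adjusted p 0.965). The Gbp3 call was lost in 7 alternatives, among them without Cured replicate 2 (0.79, adjusted p 0.323), without Relapsed replicate 1 (0.67, adjusted p 0.334) and with DESeq2 (adjusted p 0.066). Neutrophil marker UMIs summed to 7650 and 5798 CPM in Cured and 5733 and 17677 CPM in Relapsed non-classical monocytes, and their part in these values was not tested.

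Neutrophils were lower in Ifi47 (log2 fold change -2.44, SE 0.28, adjusted p 2.51e-13), Gbp3 (-1.91, SE 0.63, adjusted p 0.00509) and Gbp4 (-1.55, SE 0.72, adjusted p 0.0481), 3 of 8 members against 30% of all genes. Gbp2 (1.41, SE 0.46, adjusted p 0.013) and Gbp7 (0.86, SE 0.31, adjusted p 0.0103) were higher in CPM, against 37.8% of all genes. Neutrophils held few UMIs per cell (medians of 932 to 1131), and scaled to UMIs per cell Gbp2 was at -0.19 (adjusted p 0.722) and Gbp7 at -0.74 (adjusted p 0.0128). The higher values of both genes are therefore shares of the RNA captured from neutrophils, and by UMIs per cell neither gene was higher. Without Relapsed replicate 1 the log2 fold change of Gbp2 was 0.63 (adjusted p 0.24) and that of Gbp7 0.60 (adjusted p 0.167), and without Cured replicate 2 that of Gbp7 was 0.37 (adjusted p 0.402). The Gbp4 call, on 5 UMIs, was lost without Cured replicate 1, without Cured replicate 2 and without Relapsed replicate 2. Without the count filter Gbp5 (-2.98, SE 1.04, adjusted p 0.0152) and Gbp6 (-5.94, SE 1.90, adjusted p 0.00703) were lower in neutrophils. Neutrophils held 1 Gbp5 UMI and 0 Gbp6 UMIs.

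Classical monocytes, with 16 to 34 cells per library, were tested in a fit added after the data were seen that took classes with at least 10 cells per library (5534 genes, 7 members tested). Gbp3 (log2 fold change 1.68, SE 0.40, adjusted p 0.00021), Irgm1 (0.88, SE 0.31, adjusted p 0.0178) and Ifi47 (0.61, SE 0.20, adjusted p 0.0105) were higher than in the other 6 classes, against 21.6% of all genes, and Gbp4, with 0 UMIs, was lower, against 11.4%. Set against classical monocytes, non-classical monocytes were lower in Ifi47 (-1.67, SE 0.29, adjusted p 1.08e-06), 1 of 7 members against 6.16% of all genes. No member was higher, against 7.23% of all genes. No alternative was run for this added fit. Of the 15 Ifi47 UMIs in classical monocytes of Cured replicate 1, 8 came from 1 cell. Neutrophil marker UMIs were also found in this class, and their part was not tested.

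The comparison of Cured with Relapsed blood was made within each class. Summed over the 10 members, both Cured libraries lay above both Relapsed ones in 5 of 7 classes. The sum averaged 651 ± 11.4 CPM in Cured and 458 ± 86.3 CPM in Relapsed CD4 T cells, 544 ± 41.8 CPM in Cured and 394 ± 64.5 CPM in Relapsed CD8 T cells, and 503 ± 43.8 CPM in Cured and 395 ± 56.3 CPM in Relapsed NK cells (SD, n = 2 each). It averaged 281 ± 29.6 CPM in Cured and 233 ± 11.1 CPM in Relapsed B cells, and 608 ± 114 CPM in Cured and 377 ± 85.2 CPM in Relapsed classical monocytes. In non-classical monocytes (371 ± 280 CPM in Cured, 237 ± 74.1 CPM in Relapsed) and neutrophils (230.5 ± 87.2 CPM in Cured, 180.0 ± 120 CPM in Relapsed) the groups overlapped. With all libraries together, Ifi47 was the largest part of the sum in the 5 classes without overlap. Gbp2 was the largest part in non-classical monocytes and neutrophils. Without a test of its own the sum is a description. With 2 libraries a group, the smallest p of an exact permutation test is 0.33 (two-sided).

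Ifi47 was the largest part of that difference in these 5 classes. Its level was 386.7 and 324.8 CPM in Cured CD4 T cells, against 182.3 and 132.2 CPM in Relapsed CD4 T cells. In CD8 T cells it was 291.1 and 257.4 CPM in Cured, against 148.1 and 211.3 CPM in Relapsed libraries. In NK cells it was 291.4 and 279.8 CPM in Cured, against 144.1 and 204.8 CPM in Relapsed libraries. Both Cured libraries were above both Relapsed libraries in each of these 3 lymphocyte classes, and Relapsed replicate 1 was the lowest in CD8 T and NK cells. B cells had 88.5 and 107.6 CPM in Cured, against 53.4 and 73.0 CPM in Relapsed libraries. Classical monocytes had 279.4 and 217.6 CPM in Cured, against 120.6 and 178.1 CPM in Relapsed libraries. The groups did not overlap in these classes either, so 5 of 7 classes had Cured above Relapsed. In classical monocytes this rests on 1 cell of Cured replicate 1, which held 8 of its 15 Ifi47 UMIs: the other 7 UMIs make 130 CPM, below Relapsed replicate 2. Non-classical monocytes had 19.3 and 98.1 CPM in Cured, against 40.5 and 49.2 CPM in Relapsed libraries, and neutrophils had 12.7 and 18.7 CPM in Cured, against 31.6 and 0 CPM in Relapsed libraries, both overlapping. The classes of a library share its mice and its preparation, so they are not independent replicates of the difference. In each of the 5 classes, 19.3% to 23.3% of all genes tested had both Cured libraries above both Relapsed libraries. The share of genes so parted in 5 classes at once was not computed.

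**Figure D4:**
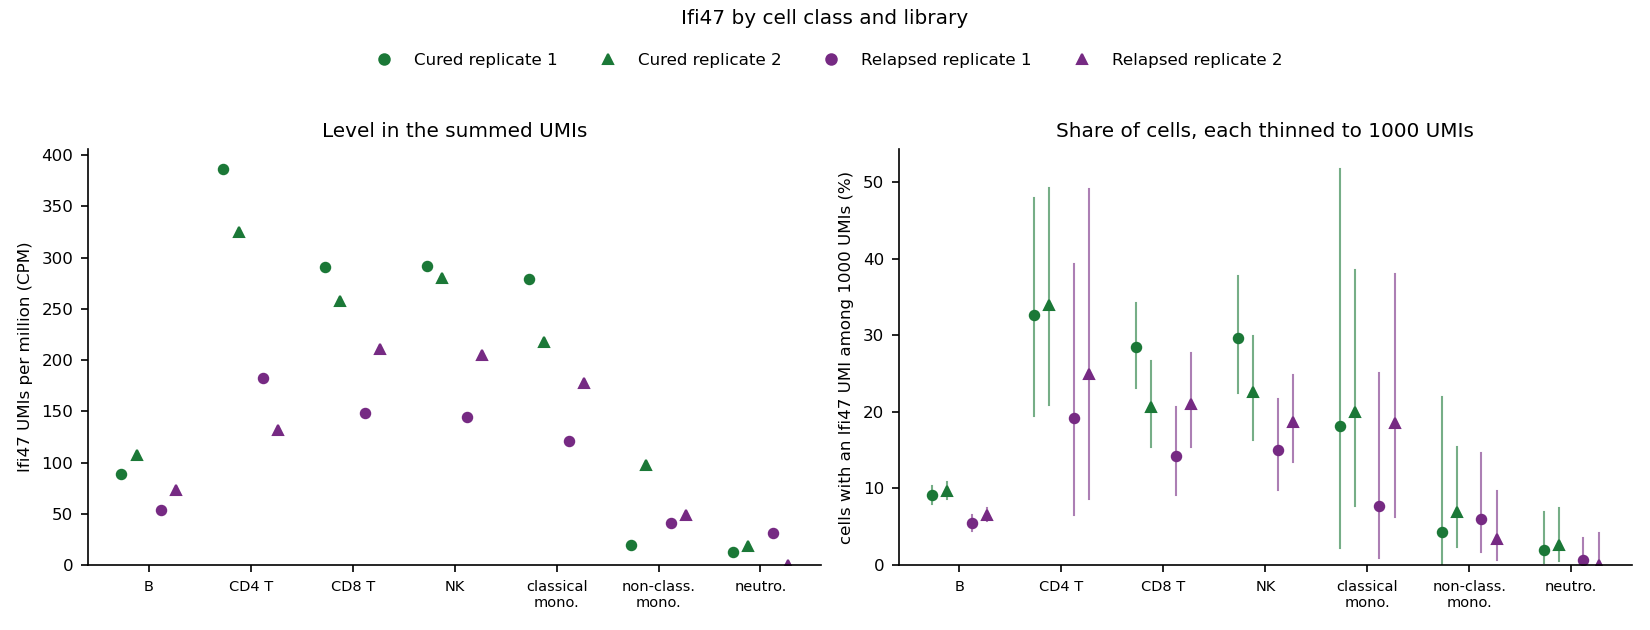
Left, Ifi47 level in CPM, and right, the percent of cells with an Ifi47 UMI when each cell is thinned to 1000 UMIs (bars are exact 95% binomial intervals), for each library in 7 blood cell classes, with Cured points left of Relapsed points. In level, both Cured libraries lie above both Relapsed libraries in B, CD4 T, CD8 T and NK cells and in classical monocytes, and the groups overlap in non-classical monocytes and neutrophils.

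The fits over all genes did not call Ifi47 in any class. Its log2 fold change, positive where Cured was higher, was 1.10 in CD4 T cells (SE 0.33, edgeR adjusted p 0.588), 0.66 in NK cells (SE 0.22, adjusted p 0.378), 0.62 in B cells (SE 0.19, adjusted p 0.543) and 0.55 in CD8 T cells (SE 0.18, adjusted p 0.181). The unadjusted p lay between 0.00277 and 0.00952 in these 4 classes (edgeR, 2 libraries against 2). It was 0.64 in classical monocytes (SE 0.35, adjusted p 0.741, in the added fit) and 0.80 in non-classical monocytes (SE 0.53, adjusted p 0.999). Ifi47 did pass the test in B cells without Relapsed replicate 2 (0.88, adjusted p 0.013) and without the count filter (0.63, adjusted p 0.0472), and in NK cells without Relapsed replicate 2 (0.97, adjusted p 0.00922). Without that library the Relapsed group is replicate 1 alone, which is assumed to vary like the Cured libraries, and 1485 genes were called in B cells and 150 in NK cells. Without Relapsed replicate 1, the library of the red cell barcodes, it was 0.42 in B cells, 0.35 in CD8 T cells and 0.45 in NK cells. The difference between the effects in CD8 T cells and B cells was -0.04 (SE 0.15, edgeR adjusted p 1), and between NK cells and B cells 0.08 (SE 0.21, adjusted p 1). No member was called in either test of a difference between classes, where 0.0723% of 9680 genes were called between CD8 T and B cells and 0% of 9824 between NK and B cells. At an unadjusted p under 0.05 there were also 0 members in both tests, and DESeq2 called 1 gene and 0 genes in all.

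In B cells 0 of the 10 members passed the test by edgeR, where 0% of 10210 genes were called. At an unadjusted p under 0.05 there were 3 members (905 genes in all), and DESeq2 called 10 genes in all. Of the members 7 had a positive log2 fold change, with a median of 0.15 against 0.00 for all genes. Gbp2, Gbp6 and Ifi47 had both Cured libraries above both Relapsed libraries, 3 of 10 members against 23.3% of all genes, and Gbp4 had both below, 1 of 10 against 22.3%. Gbp2 had 19.1 and 25.8 CPM in Cured and 15.1 and 15.4 CPM in Relapsed B cells (log2 fold change 0.55, SE 0.22, adjusted p 0.548). Gbp6 had 3.58 and 3.77 CPM in Cured and 2.13 and 1.57 CPM in Relapsed B cells, from 23 and 29 UMIs in Cured and 9 and 11 UMIs in Relapsed libraries (1.02, SE 0.37, adjusted p 0.543). The other 7 lay between -0.15 (Gbp4) and 0.26 (Gbp9), each by less than 2 standard errors.

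In CD8 T cells 0 of 8 members tested passed by edgeR, where 0.395% of 5572 genes were called. There was 1 member at an unadjusted p under 0.05 (513 genes in all), and DESeq2 called 0 genes. The log2 fold change was positive for 7 of the 8, with a median of 0.48 against -0.00 for all genes. Of all 10 members 6 had both Cured libraries above both Relapsed libraries (5 of the 8 tested), where 21.8% of all genes tested did, and Gbp4 had both below, where 16.2% did. Gbp2 had 49.0 and 53.3 CPM in Cured and 27.8 and 39.5 CPM in Relapsed CD8 T cells (0.53, SE 0.31, adjusted p 0.653). Gbp9 had 29.6 and 25.5 CPM in Cured and 14.8 and 19.8 CPM in Relapsed CD8 T cells (0.61, SE 0.40, adjusted p 0.727). Gbp6, Irgm1 and Gbp3 were the other members with Cured above. Gbp4 had 37.9 and 23.3 CPM in Cured and 42.6 and 42.6 CPM in Relapsed CD8 T cells (-0.50, SE 0.33, adjusted p 0.716).

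**Figure D5:**
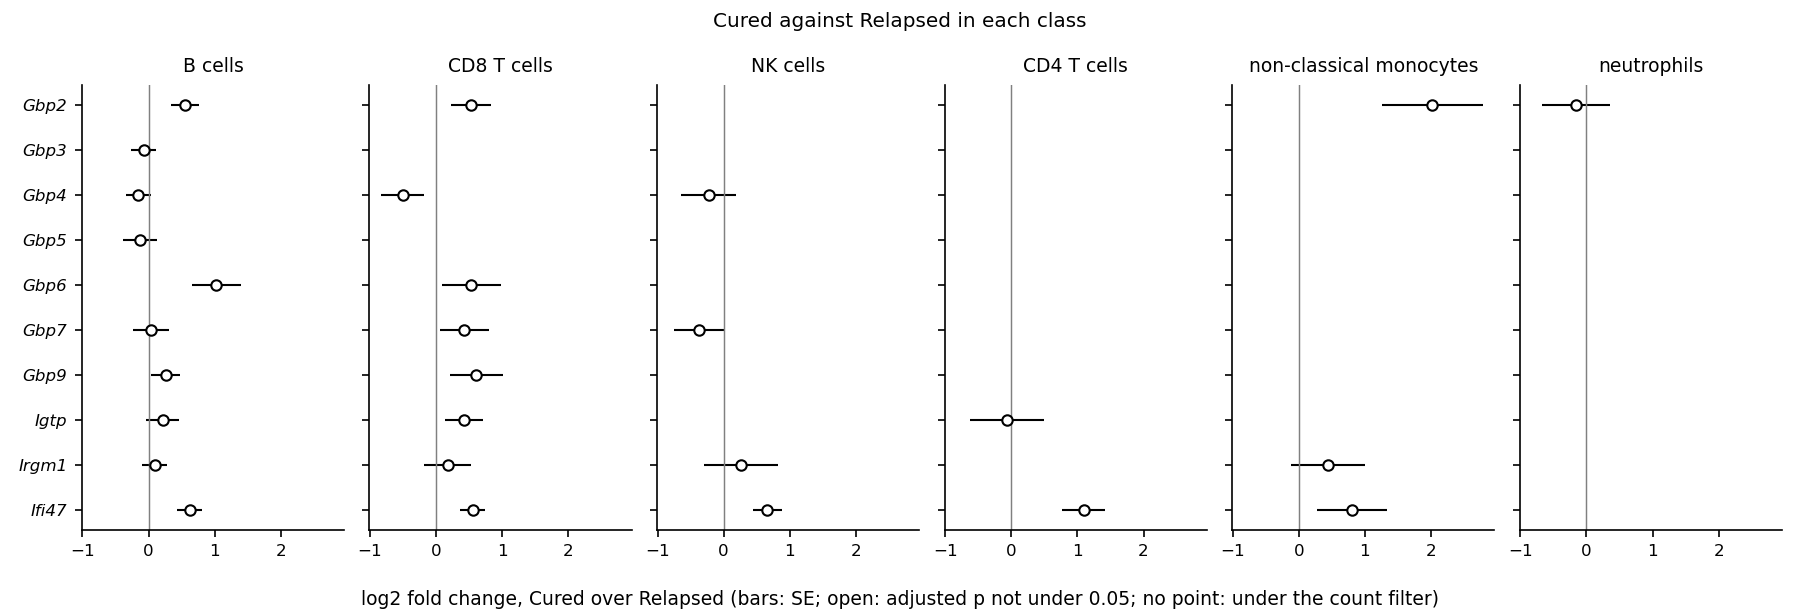
Log2 fold change of each GTPase gene tested in Cured against Relapsed libraries, by blood cell class, with bars of 1 standard error (edgeR, 2 libraries per group). Ifi47 lies between 0.55 and 1.10 in the 4 lymphocyte classes, Gbp4 is below 0 in B, CD8 T and NK cells, and no point has an adjusted p under 0.05.

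In NK cells 0 of 4 members tested passed by edgeR, where 0.0675% of 4445 genes were called. There was 1 member, Ifi47, at an unadjusted p under 0.05 (303 genes in all), and DESeq2 called 0 genes. Gbp3 and Ifi47 had both Cured libraries above both Relapsed libraries. These were 2 of all 10 members and 1 of the 4 tested, against 21.1% of all genes tested. Gbp4 had both below, 1 of 10 members and 1 of the 4 tested, against 16.3%. Gbp4 had 43.3 and 39.6 CPM in Cured and 43.6 and 50.6 CPM in Relapsed NK cells (-0.23, SE 0.41, adjusted p 0.963), so the gap between the groups was far under the error. Gbp7 had 40.4 and 53.7 CPM in Cured and 70.4 and 50.6 CPM in Relapsed NK cells (-0.37, SE 0.38, adjusted p 0.925).

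In CD4 T cells, with 47 and 50 cells in Cured and 27 and 21 in Relapsed libraries, 2 members passed the count filter and 0 were called, where edgeR called 0.0882% of 1134 genes (49 at an unadjusted p under 0.05, 1 of them a member, and 0 by DESeq2). Ifi47 had 54 and 47 UMIs in Cured and 13 and 7 UMIs in Relapsed CD4 T cells. Gbp7, Gbp9 and Ifi47 had both Cured libraries above both Relapsed libraries. These were 3 of all 10 members and 1 of the 2 tested, against 19.3% of all genes tested. Gbp2 and Gbp4 had both below, 2 of 10 members and 0 of the 2 tested, against 11.8%. Gbp4 rested on 3 to 6 UMIs per library here. Igtp had 85.9 and 103.7 CPM in Cured and 126.2 and 56.7 CPM in Relapsed CD4 T cells, with wide overlap (log2 fold change -0.06, SE 0.56). Gbp4 had both Relapsed libraries above both Cured libraries in 4 of 7 classes. It was tested in 3 of these, B, CD8 T and NK cells, and called in 0. In each of the 4 classes, 11.8% to 22.3% of all genes tested had both Cured libraries below. The share of genes so parted in 4 classes at once was not computed. Igtp overlapped between the groups in all 7 classes.

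Among monocytes and neutrophils the groups were harder to part. In classical monocytes the added fit tested 2 members and called 0, where 0.572% of 1749 genes were called (125 at an unadjusted p under 0.05, with 0 members among them). Gbp2 there had 149.0 and 65.9 CPM in Cured and 37.7 and 40.5 CPM in Relapsed libraries, from 8 and 10 UMIs in Cured and 5 and 5 in Relapsed libraries. Gbp2, Gbp9 and Ifi47 had both Cured libraries above both Relapsed libraries. These were 3 of 10 members and 1 of the 2 tested, against 19.6% of all genes tested. Neutrophil marker UMIs summed to 19128 and 3548 CPM in Cured and 1553 and 955 CPM in Relapsed classical monocytes, and red cell markers to 9710 CPM in Relapsed replicate 1; their part was not tested. In non-classical monocytes 0 of 3 members tested were called, where 0% of 2954 genes were (104 at an unadjusted p under 0.05, 1 of them a member, and 0 by DESeq2). Gbp2 had 0 and 255 CPM in Cured and 40.5 and 49.2 CPM in Relapsed non-classical monocytes, from 0 and 65 UMIs in Cured and 7 and 12 in Relapsed libraries (2.02 on the log2 scale, SE 0.76, adjusted p 0.999). The 2 Cured libraries lay on either side of both Relapsed libraries, and without Cured replicate 1, which held 26 cells, the value was 2.48 (adjusted p 1.71e-05). Gbp5 and Gbp9 had both Cured libraries above, 2 of 10 members against 16.4% of all genes tested. Gbp6 had both below, 1 of 10 against 16.8%, and all lay on 0 to 7 UMIs per library. Of the 3 members tested, 0 had the groups apart. In neutrophils Gbp2 alone was tested (-0.16, SE 0.51, adjusted p 0.999), where 0% of 2677 genes were called (106 at an unadjusted p under 0.05, no member among them, and 0 by DESeq2). Irgm1 was the 1 member of 10 with both Cured libraries above, 38.0 and 63.7 CPM in Cured and 26.7 and 15.0 CPM in Relapsed neutrophils, against 13.9% of all genes tested. Irgm1 fell under the count filter there, and Gbp2, the member tested, overlapped between the groups. Of the 13 Ifi47 UMIs in neutrophils of Relapsed replicate 1, 6 came from 1 cell.

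The share of cells with at least 1 Ifi47 UMI followed the levels. It was 59.9% and 58.8% in Cured and 33.8% and 46.2% in Relapsed CD8 T cells, 44.7% and 39.7% in Cured and 21.5% and 29.5% in Relapsed NK cells, and 17.0% and 20% in Cured and 9.16% and 13.1% in Relapsed B cells. Red cell barcodes, which should lack the gene, had 0. Because Cured cells were sequenced to more UMIs, each cell was thinned to 1000 UMIs, which left out 312 of 5886 Cured and 240 of 5407 Relapsed B cells, 26 of 333 Cured and 41 of 387 Relapsed NK cells, and 5 of 490 Cured and 3 of 343 Relapsed CD8 T cells. Thinned, the shares were 9.11% and 9.70% in Cured and 5.45% and 6.58% in Relapsed B cells, and 29.7% and 22.6% in Cured and 15.0% and 18.7% in Relapsed NK cells, still apart. In thinned CD8 T cells the groups overlapped, at 28.5% and 20.6% in Cured and 14.2% and 21.1% in Relapsed libraries. Cells with a UMI of any of the 10 members made up 79.6% and 80.1% of Cured and 60.5% and 71.5% of Relapsed CD8 T cells, and 42.7% and 36.7% of Cured and 28.4% and 35.1% of Relapsed CD8 T cells when thinned. In B cells they made up 40.3% and 43.9% in Cured and 32.3% and 35.2% in Relapsed libraries, and 21% and 22.9% in Cured and 19.9% and 19.8% in Relapsed libraries when thinned.

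Members of the interferon-gamma pathway upstream of these GTPases were measured in the same classes. Ifng, the ligand, was found mainly in NK cells, at 135.6 and 107.4 CPM in Cured and 77.1 and 98.6 CPM in Relapsed libraries. CD4 T cells had 28.6 and 6.91 CPM of Ifng in Cured and 28.0 and 0 CPM in Relapsed libraries. These came from 4 and 1 UMIs in Cured and 2 and 0 UMIs in Relapsed libraries. CD8 T cells had 11.1 and 9.99 CPM of Ifng in Cured and 3.70 and 7.60 CPM in Relapsed libraries. B cells had 4 UMIs of it in all. Ifng was higher in NK cells than in the other classes (log2 fold change 5.91, SE 0.35, adjusted p 6.32e-40). Ifngr1, the ligand-binding receptor chain, was at 935 and 938 CPM in Cured and 824 and 887 CPM in Relapsed NK cells (1.86 against the other classes, SE 0.08, adjusted p 1.15e-58). Ifngr2, the signalling chain that the receptor also needs, had 2 UMIs in all NK cells (1.43 CPM, exact Poisson interval 0.174 to 5.18 CPM). Classical monocytes held 130 and 145 CPM of Ifngr2 in Cured and 45.2 and 113 CPM in Relapsed libraries, and B cells 61.4 and 57.5 CPM in Cured and 30.5 and 48.9 CPM in Relapsed libraries. NK cells thus stood high in the ligand and in Ifngr1, and at or near 0 in Ifngr2. Of the members, Ifi47, Gbp4 and Gbp7 were higher there than in the other classes, and Igtp, Irgm1 and Gbp9 were lower.

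Irf8, a transcription factor of the pathway, was higher in NK cells (log2 fold change 3.93, SE 0.17, adjusted p 1.52e-40) and B cells (2.55, SE 0.17, adjusted p 1.42e-26), and lower in CD8 T cells (-4.10, SE 0.94, adjusted p 0.00014), in which Ifi47 was high. Socs1, a feedback inhibitor of JAK kinases, was higher in CD8 T cells (0.84, SE 0.20, adjusted p 0.000125). Of all genes tested, 34.8% were higher and 21.7% lower in B cells, and 11.6% and 9.31% in CD4 T cells. The shares were 24.3% and 22.4% in CD8 T cells and 25% and 15.2% in NK cells. In non-classical monocytes they were 26.5% and 11.5%, and in neutrophils 37.8% and 30%. The list counts that follow stand beside these shares. Of the 13 genes of the ligand, receptor and signalling list, 4 were higher and 5 lower in B cells, 2 and 4 in CD4 T cells, 3 and 7 in CD8 T cells, 5 and 6 in NK cells, 7 and 2 in non-classical monocytes, and 9 and 3 in neutrophils. In Cured against Relapsed libraries edgeR called 0 of its 62 tests over the 7 classes (8 at an unadjusted p under 0.05). DESeq2, which was not run in classical monocytes, also called 0. Positive log2 fold changes were 8 of 12 in B cells (median 0.21) and 5 of 10 in CD8 T cells (median 0.07). They were 8 of 10 in NK cells (median 0.19) and 0 of 3 in CD4 T cells (median -0.05). Classical monocytes had 8 of 9 positive in the added fit (median 0.65). Non-classical monocytes had 5 of 9 (median 0.04) and neutrophils 3 of 9 (median -0.12).

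Among 11 other guanylate-binding and immunity-related GTPase genes in the files, 3 passed the filter of the class model, and edgeR called 0 of 9 tests between Cured and Relapsed libraries (1 at an unadjusted p under 0.05, 0 by DESeq2). Gbp8, which lies with the chromosome 5 group, was higher in CD4 T cells (log2 fold change 3.0, SE 0.72, adjusted p 0.000502), CD8 T cells (2.89, SE 0.42, adjusted p 6.17e-10) and NK cells (2.18, SE 0.55, adjusted p 0.000526), 3 of the 4 classes in which Gbp4 was called higher. Tgtp2, a T cell-specific GTPase by name, was higher in CD8 T cells (2.03, SE 0.26, adjusted p 3.41e-12) and CD4 T cells (1.48, SE 0.52, adjusted p 0.0276). Irgm2, the third Irgm regulator beside Irgm1 and Igtp, was higher in neutrophils (2.08, SE 0.38, adjusted p 2.54e-07) and non-classical monocytes (1.35, SE 0.43, adjusted p 0.00659), and lower in B cells (-1.56, SE 0.33, adjusted p 9.94e-06) and NK cells (-1.22, SE 0.48, adjusted p 0.0323). Igtp, which shares transcript sequence with Irgm2, was lower in B cells (-1.38) and NK cells (-1.39) as well, and in neutrophils its value was 0.56 (SE 0.30, adjusted p 0.0858). The difference between these genes was not tested.

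Of 24 other interferon-gamma targets, edgeR called 0 in 94 tests between Cured and Relapsed libraries (3 at an unadjusted p under 0.05, 0 by DESeq2), with 14 of 18 tested positive in B cells (median 0.11) and 10 of 15 in CD8 T cells (median 0.13). By class, 4 of 19 were higher and 6 lower in B cells, 5 and 3 in CD8 T cells, 4 and 5 in NK cells and 9 and 7 in neutrophils. In these classes 24.3% to 37.8% of all genes tested were higher and 15.2% to 30% lower. In non-classical monocytes 8 of 19 were higher and 0 lower, against 26.5% and 11.5% of all genes. In classical monocytes 4 were higher and 1 lower in the added fit, against 21.6% and 11.4%. In CD4 T cells 1 was higher and 0 lower, against 11.6% and 9.31%. Ciita, the regulator of MHC class II genes, was higher in B cells (log2 fold change 5.28, SE 0.25, adjusted p 2.62e-54). The proteasome activator genes Psme1 (0.84, SE 0.07, adjusted p 4.74e-24) and Psme2 (0.79, SE 0.08, adjusted p 8.11e-19) were higher in CD8 T cells. Of 16 genes of autophagy and inflammasome partners found in the files, edgeR called 0 in 66 tests between Cured and Relapsed libraries (3 at an unadjusted p under 0.05, 0 by DESeq2). By class, 0 of 15 were higher and 10 lower in CD8 T cells, while 11 were higher and 0 lower in neutrophils. Of all genes tested, 24.3% were higher and 22.4% lower in CD8 T cells, and 37.8% and 30% in neutrophils.

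Of the type I interferon list 28 genes were found in the files. In neutrophils 16 of 21 tested were higher and 2 lower (median log2 fold change 2.55 against 0.08 for all genes), where Ifi47, Gbp3 and Gbp4 were lower and Gbp2 and Gbp7 higher. In NK cells 2 were higher and 14 lower (median -1.18), where Ifi47, Gbp4 and Gbp7 were higher and Igtp, Irgm1 and Gbp9 lower. In classical monocytes 15 of 22 were higher and 0 lower in the added fit, where Ifi47, Gbp3 and Irgm1 were higher. Of all genes, 37.8% were higher and 30% lower in neutrophils, 25% and 15.2% in NK cells, and 21.6% and 11.4% in classical monocytes. The difference between the list and the members was not tested. Between Cured and Relapsed libraries edgeR called 1 in 96 tests of this list over the 7 classes (16 at an unadjusted p under 0.05, 0 by DESeq2), with 20 of 25 positive in B cells (median 0.30) and 16 of 17 in CD8 T cells (median 0.41). The call was in the added fit of classical monocytes, 1 of 13 tested there, Ifi27l2a (1.03, SE 0.17, adjusted p 4.87e-06). DESeq2 was not run in that class, so its count of 0 does not cover this call. For the GTPases tested the medians were 0.15 in B cells and 0.48 in CD8 T cells, and the part of type I interferon in their levels was not tested.

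B and CD8 T cells with UMIs of at least 5 of the 28 type I interferon genes had higher member levels than the remaining cells of their class in all 4 libraries. There were 94 and 127 such B cells in Cured and 31 and 72 in Relapsed libraries. The members summed to 634 and 607 CPM in these cells in Cured and 493 and 576 CPM in Relapsed libraries, while in the remaining B cells they summed to 244 and 285 CPM in Cured and 220 and 232 CPM in Relapsed libraries. Ifi47 was at 241 and 258 CPM in these cells in Cured and 149 and 195 CPM in Relapsed libraries, and in the remaining B cells at 81.8 and 99.2 CPM in Cured and 51.4 and 69.5 CPM in Relapsed libraries. The groups did not overlap in Ifi47 among the remaining B cells either. These cells were deeper, with medians of 2301 to 2754 UMIs against 1842 to 2335 in the remaining B cells, and the part of depth was not tested. In CD8 T cells there were 48 and 46 such cells in Cured and 17 and 15 in Relapsed libraries, with members at 798 and 650 CPM in Cured and 587 and 665 CPM in Relapsed libraries, while in the remaining CD8 T cells they summed to 516 and 469 CPM in Cured and 313 and 412 CPM in Relapsed libraries. The CD8 T cells with these UMIs were deeper too, with medians of 3909 to 4607 UMIs against 3251 to 3761. NK cells held 0 to 3 such cells per library, and in Cured replicate 2 these were at 118 CPM against 481 CPM in the rest.

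The genes whose pattern over the 28 class and library sums was most like the mean of the 10 members were Tex264 (Pearson r 0.91), Rbck1 (0.89), Adsl (0.88), Asf1a (0.88), Plaat3 (0.87) and Armc10 (0.86), among 4806 genes outside the members with a mean of at least 20 CPM. The measure was the correlation of log2(CPM + 1) with the mean log2 level of the members. The sums share libraries and differ in depth, and small sums hold zeros, so these values are descriptions. In Cured replicate 1, the non-classical monocytes held 0 UMIs of Tex264, Adsl, Asf1a, Plaat3 and Armc10, as they did of 6 members, Gbp2, Gbp3, Gbp4, Gbp6, Gbp7 and Igtp. Between the members themselves the correlation was highest for Gbp2 with Igtp (0.68), Gbp7 with Igtp (0.59) and Gbp6 with Ifi47 (0.54), and lowest for Gbp5 with Igtp (-0.58).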

How the data were processed

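Raw UMI counts per gene and cell barcode were deposited for 4 libraries. Per the submitters' processing notes the authors used Cell Ranger 3.1.0 and mm10, and the annotation release is not given in the sources used here. Each library is a pool of 3 mice, and p-values of Cured against Relapsed measure the spread between pools. With the library as a block, p-values of class comparisons and of differences between effects measure the spread of class sums left within libraries. Barcodes with fewer than 200 genes, more than 10% mitochondrial UMIs or over 50% haemoglobin UMIs were left out. Classes needed UMIs of 3 markers (4 for monocytes and neutrophils), and NK cells fewer than 2 T cell markers. T cells were parted by UMIs of Cd4 and Cd40lg or of Cd8a and Cd8b1. The classes are rebuilt from markers and are not the authors' annotation. No doublet caller was run. Instead, 337 barcodes with markers of more than 1 class were left out, as were 133 B-lineage cells with Cdkn2a or transgene UMIs, 301 T cells and 35 monocytes of neither or both kinds, 10 dendritic-marked and 284 unassigned barcodes. The gate was fitted to these data after seeing them.

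Sums of UMIs over each class of a library, if all libraries held at least 20 of its cells, were tested over all genes in edgeR 4.0.16 by its quasi-likelihood test (TMM, filterByExpr, robust fit, R 4.3.3) with Benjamini-Hochberg adjustment at 0.05. Class comparisons had the library as a block. CPM were computed here from the class sums, and SE is the log2 fold change over the root of the F statistic. Adjusted p-values are edgeR's, or DESeq2's (1.42.0) where that tool is named. Shares of cells have exact binomial intervals at 95% in the tables, and cells were thinned with a fixed seed. The scripts were tested on simulated data. Python 3.11.15, numpy 2.4.6, pandas 2.3.3 and scipy 1.17.1 were used for sums, shares and sequences. Alternatives were DESeq2, no count filter, a looser gate, thinning to 1000 UMIs, at most 5% mitochondrial UMIs, scaling to UMIs per cell, the replicate block, B-lineage cells with Cdkn2a kept, and leaving out each library. A minimum of 10 cells per library was added after seeing the data.

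The members, gene lists and markers were chosen with earlier results of these data known. All 10 members were named, with up to 3 genes of each list by smallest p among those past the test, and the 6 genes most alike. Genes set apart were antigen receptor segments and those sex-linked, predicted, ribosomal or mitochondrial. Genomic positions come from GENCODE M21 and promoter windows from RefSeq on GRCm38.p6.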

Additional observations from a re-analysis of the deposited data

Results flagged for a closer look

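Gbp2 gave a signal in cells left out of the comparisons. In B-lineage cells with UMIs of Cdkn2a or of the leukaemia's transgenes its level was 84.9 CPM in Cured replicate 2 (31 cells), 100.0 CPM in Relapsed replicate 1 (32 cells) and 105.2 CPM in Relapsed replicate 2 (67 cells), against 15.1 to 25.8 CPM in B cells. Cured replicate 1 held 3 such cells and 0 Gbp2 UMIs. These cells had medians of 4524.5 to 5256 UMIs in the 3 libraries, against 1848 to 2342 in B cells, and in Relapsed replicate 2, 10 of the 36 Gbp2 UMIs came from 1 cell. The difference was not tested.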

How the results depend on the processing

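Of 615 member values recomputed under an alternative, 541 kept their direction and their side of the threshold, 33 lost a call, 5 gained one and 36 changed sign. Of 31 values past the threshold, 20 stayed past it in every alternative run. The calls of the added fit with classical monocytes are not among these 31, and no alternative was run for them. The causes of the changes were not tested, except that thinned class fits tested only 2 members, Gbp2 and Ifi47. Between Cured and Relapsed libraries, counts of genes called were as follows. In B cells DESeq2 called 10, no count filter 203 (1 member), the replicate block 156 and thinning 3. In CD4 T cells, with 1 called, the count was 0 with DESeq2 and with thinning, 2 with the looser gate, and 5 with no filter, with the block and with 5% mitochondrial UMIs. In CD8 T cells, with 22, DESeq2 called 0, the block 10 and thinning 6. In NK cells, with 3, no filter called 7, and DESeq2, the looser gate, thinning and 5% mitochondrial UMIs called 0. In non-classical monocytes no filter called 5 (1 member) and the block 1, and in neutrophils no filter called 1 and the block 2. The CD8 against B difference, with 7, gave 1 with DESeq2 and 0 with thinning.

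Between classes, thinning gave 1899 genes for B cells (1 member), 575 for CD4 T cells (1 member), 1297 for CD8 T cells (1 member), 1383 for NK cells (1 member), 1251 for non-classical monocytes (2 members), 2306 for neutrophils (2 members) and 1076 for NK against CD8 T cells (1 member). No filter gave 5909 for B cells. CD8 against CD4 T cells gave 473 with the looser gate, 351 scaled to UMIs per cell and 406 with 10 cells per library. Members called were 7 in CD8 T cells and 6 in NK against CD8 T cells when scaled to UMIs per cell, 5 in NK against CD8 T cells with the looser gate, and 3 in non-classical monocytes with DESeq2 or 10 cells per library.

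Values that changed sign, none of them called in the main test unless said, were Gbp7 in B cells, Cured against Relapsed (-0.11 thinned, -0.0039 with 5% mitochondrial UMIs, -0.023 with Cdkn2a cells kept), Gbp9 (-0.24) and Irgm1 (-0.024) in thinned B cells, Igtp in CD4 T cells with no filter (0.18), Gbp2 in neutrophils with the block (0.041) and Ifi47 in the NK against B difference when thinned (-0.039). Ifi47 in CD8 against CD4 T cells gave 0.10 with no filter, 0.23 with the looser gate, 0.033 thinned, 0.20 scaled to UMIs per cell and 0.18 with 10 cells per library. The calls of Gbp2 (-0.19) and Gbp7 (-0.74) in neutrophils changed sign scaled to UMIs per cell.

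Leaving out each library in turn, genes called between Cured and Relapsed libraries ranged from 2 to 1485 in B cells (members 0 to 1), 0 to 14 in CD4 T cells, 0 to 49 in CD8 T cells, 0 to 150 in NK cells (members 0 to 1), 0 to 11 in non-classical monocytes (members 0 to 1) and 2 to 8 in neutrophils. The ranges were 2 to 18 for the CD8 against B difference, 0 to 7 for NK against B, 102 to 321 for CD8 against CD4 T cells, and 3 to 4 members for neutrophils against the other classes. Log2 fold changes ranged in B cells from -0.49 to 0.15 for Gbp5, -0.29 to 0.29 for Gbp7, -0.0007 to 0.51 for Igtp, -0.018 to 0.22 for Irgm1 and -0.24 to 0.10 for Gbp3. They ranged from -0.43 to 0.72 for Igtp in CD4 T cells, -0.063 to 0.77 for Igtp and -0.0097 to 1.24 for Gbp7 in CD8 T cells, -0.41 to 0.87 for Irgm1 in NK cells, -0.25 to 1.47 for Irgm1 in non-classical monocytes and -0.68 to 1.59 for Gbp2 in neutrophils. Between classes they ranged from -0.0595 to 1.77 for Gbp2 in non-classical monocytes and -0.17 to 0.23 for Ifi47 in CD8 against CD4 T cells, and for the Ifi47 differences from -0.32 to 0.21 (CD8 against B) and -0.13 to 0.30 (NK against B).

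Whether same-numbered Cured and Relapsed libraries shared a batch is not stated. The correlations of their deviations from the group means lay between -0.0795 and 0.0388 in the 6 classes. Such correlations over all genes cannot exclude a batch shared in some genes, so the block was kept as an alternative only. Depth limits the number of members tested between Cured and Relapsed libraries: 2 in CD4 T cells, 2 in classical monocytes, 3 in non-classical monocytes and 1 in neutrophils. Classical monocytes were not run in the main fits, since 1 library held 16 cells.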
